A study of Mus musculus with 28 samples.

Results

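Interferon regulatory factors (IRFs) are DNA-binding proteins that switch on type I interferon genes and the genes that interferon induces. The transcripts of 8 of them (Irf1, Irf2, Irf3, Irf4, Irf5, Irf7, Irf8 and Irf9) are described here in murine bone marrow-derived macrophages (BMDMs). They were chosen by name from 54532 genes in the count table, and all 8 were matched to a row by their Ensembl identifier. BMDMs were cultured with M-CSF and then received fresh medium with 1 mM CaCl2. The control cultures were given PBS, the VWF cultures were given human plasma-derived von Willebrand factor at 10 µg/ml, and the LPS cultures were given bacterial lipopolysaccharide at 100 ng/ml. RNA was sequenced after 3.5 h and 16 h, from 5 control, 5 VWF and 4 LPS cultures at each time. The cells came from C57/B6JB mice, and neither the number of mice nor the way cultures share them is given in the sources used here. Differences are therefore measured against the spread between cultures labelled as biological replicates.

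IRF family members bind variants of the sequence GAAA in promoters and enhancers. IRF3 and IRF7 lie in the cytoplasm until kinases below Toll-like receptors or cytosolic RNA and DNA sensors phosphorylate them, after which they drive the interferon genes. Secreted interferon then acts through JAK kinases to assemble ISGF3, a complex that contains IRF9, which induces a wide set of antiviral genes including Irf7 itself. IRF1 and IRF2 compete for the same sites as activator and repressor, IRF5 acts below MyD88 on inflammatory cytokines, and IRF8 and IRF4 work with the macrophage factor PU.1. Phosphorylation and protein levels were not measured, so the values below concern transcripts alone.

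All 8 genes are protein coding, with positions on GRCm38 from GENCODE M21. Irf1 lies at chr11:53770014-53778374, Irf2 at chr8:46739732-46847458, Irf3 at chr7:44997648-45002848 and Irf4 at chr13:30749226-30766976. Irf5 lies at chr6:29526625-29541871, Irf7 at chr7:141262706-141266481 on the minus strand, Irf8 at chr8:120736358-120756694 and Irf9 at chr14:55603571-55610030, with all but Irf7 on the plus strand. Exons of 5 of the 8 overlap another gene, over 14.1% of exon length for Irf5 (Tnpo3, on the opposite strand) and between 1.19% and 3.4% for Irf1, Irf3, Irf7 and Irf9. The counts of Irf5 are uncertain for this reason, since the strand setting of the counting is not given in the sources used here. The 14.1% is a share of exon length and does not bound the error of the counts. Within Irf5, 7.51% of 100-base windows also occur in Tnpo3.

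The 250 bases before the RefSeq start (GRCm38.p6) are shown for the 4 genes whose transcripts differed most between VWF and LPS at 3.5 h, to set their motifs beside the levels. RefSeq promoter windows were found for all 8 genes, with a further start for Irf1, Irf8 and Irf9. Each window is written 5′ to 3′ on the strand of the gene, and capitals mark matches to 5 motifs. These were the interferon-stimulated response element (ISRE), which is GAAA, any 2 bases and GAAA, the STAT site (GAS) TTCNNNGAA, the ETS-IRF composite element (GGAA, any 2 bases and GAAA) and the κB site by its consensus, each on both strands, and the TATA box TATAAA on the strand of the gene. The ISRE and the composite element can overlap. The windows are chr11:53769764-53770013 for Irf1, chr8:46739495-46739744 for Irf2, chr7:141266425-141266674 on the minus strand for Irf7 and chr8:120736108-120736357 for Irf8.
Irf1: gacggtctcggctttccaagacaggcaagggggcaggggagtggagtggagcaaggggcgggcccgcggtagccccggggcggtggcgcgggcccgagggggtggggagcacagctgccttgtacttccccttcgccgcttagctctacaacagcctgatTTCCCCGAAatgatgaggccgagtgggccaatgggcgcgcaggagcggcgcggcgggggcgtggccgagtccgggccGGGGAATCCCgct
Irf2: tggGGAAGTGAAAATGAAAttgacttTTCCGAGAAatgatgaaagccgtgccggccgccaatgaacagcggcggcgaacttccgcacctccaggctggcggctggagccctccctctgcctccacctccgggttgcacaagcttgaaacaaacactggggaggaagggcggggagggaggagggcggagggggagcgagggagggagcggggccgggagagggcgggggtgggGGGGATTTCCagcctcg
Irf7: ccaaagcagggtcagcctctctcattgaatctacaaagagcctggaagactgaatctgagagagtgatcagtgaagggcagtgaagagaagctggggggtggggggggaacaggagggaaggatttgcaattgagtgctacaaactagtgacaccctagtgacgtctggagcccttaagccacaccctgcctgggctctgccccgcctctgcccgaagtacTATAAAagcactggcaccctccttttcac
Irf8: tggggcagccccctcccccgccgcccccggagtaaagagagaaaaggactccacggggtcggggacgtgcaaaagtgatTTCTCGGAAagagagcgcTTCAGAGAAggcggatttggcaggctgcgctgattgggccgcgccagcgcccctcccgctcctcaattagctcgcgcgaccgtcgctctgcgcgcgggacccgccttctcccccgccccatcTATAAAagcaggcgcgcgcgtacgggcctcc
Irf1 held a GAS match from -90 to -82 and a κB match, found on both strands, from -13 to -4, counted from the start. Irf2 held an ISRE (GAAAATGAAA) overlapped by a composite element, a GAS match and a κB match. Irf8 held 2 GAS matches and a TATA box, Irf7 and Irf4 held a TATA box alone, and Irf3, Irf5 and Irf9 held none of the 5. The windows of the further starts of Irf1, Irf8 and Irf9 held no match. Among 32841 RefSeq promoter windows of the same length, 2.98% held an ISRE, 7.02% a GAS, 2.3% a composite element, 7.25% a κB site and 7.59% a TATA box. A match describes the letters in a window and not a bound site.

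Total counts per culture lay between 41131209 and 77699206. All 8 macrophage markers examined (Adgre1, Csf1r, Itgam, Cd68, Mertk, Fcgr1, Cd14 and Lyz2) had a mean over 1 TPM, a unit of transcripts per gene length and library, in every group. Their sum at 16 h was 7669.5 to 36785 TPM in controls, 28539 to 50694 TPM with VWF and 9179 to 19007 TPM with LPS. Of the fibroblast and endothelial markers, Col1a1 and Col3a1 had a mean over 1 TPM in every group. The neutrophil marker Camp did so in every treated group. The part of these differences in the IRF values was not tested. A control culture (replicate 5) and an LPS culture (replicate 4), both at 16 h, stood apart, with a root mean square log2 distance from their group means of 0.669 and 0.493, against 0.1 to 0.317 in the other 26 cultures. The scale factors of the trimmed mean of M values (TMM) were 0.729 to 0.845 in LPS cultures and 0.944 to 1.19 in control cultures. With library size scaling alone the median log2 fold change of all genes was -0.55 with LPS at 3.5 h, -0.59 with LPS at 16 h and -0.22 with VWF at 3.5 h, against -0.02, -0.03 and -0.01 with TMM factors. All changes below are relative to TMM scaling. Levels of 1 gene across cultures are given as CPM (counts scaled to library size) with TMM factors, and levels of different genes are compared in TPM, which divides by exon length.

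In control cultures Irf5 was the most abundant of the 8 transcripts, at 324 ± 21.7 TPM (SD, n = 5) at 3.5 h and 205 ± 57.1 TPM at 16 h. It made up 56.6% ± 5.2 of the summed TPM of the 8 genes at 3.5 h and 50.9% ± 2.92 at 16 h. Irf7 (71.9 TPM), Irf8 (71.6 TPM), Irf1 (44.2 TPM) and Irf3 (32.8 TPM) followed in controls at 3.5 h, and neighbours in that order had overlapping ranges. Irf9 (18.6 TPM) and Irf2 (11.2 TPM) lay lower, and Irf4 at 0.819 TPM was the lowest of the 8 in all 6 groups. In VWF cultures at 3.5 h Irf5 (349 TPM) and Irf1 (301 TPM) led with overlapping ranges, although Irf5 was above Irf1 in each of the 5 cultures. In LPS cultures at 3.5 h Irf1 led at 921 TPM, above Irf5 at 543 TPM and Irf7 at 486 TPM, and the ranges of the last pair overlapped. By 16 h Irf7 led with both treatments, at 762 ± 131 TPM with VWF (n = 5) and 2633 ± 554 TPM with LPS (n = 4).

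**Figure D1:**
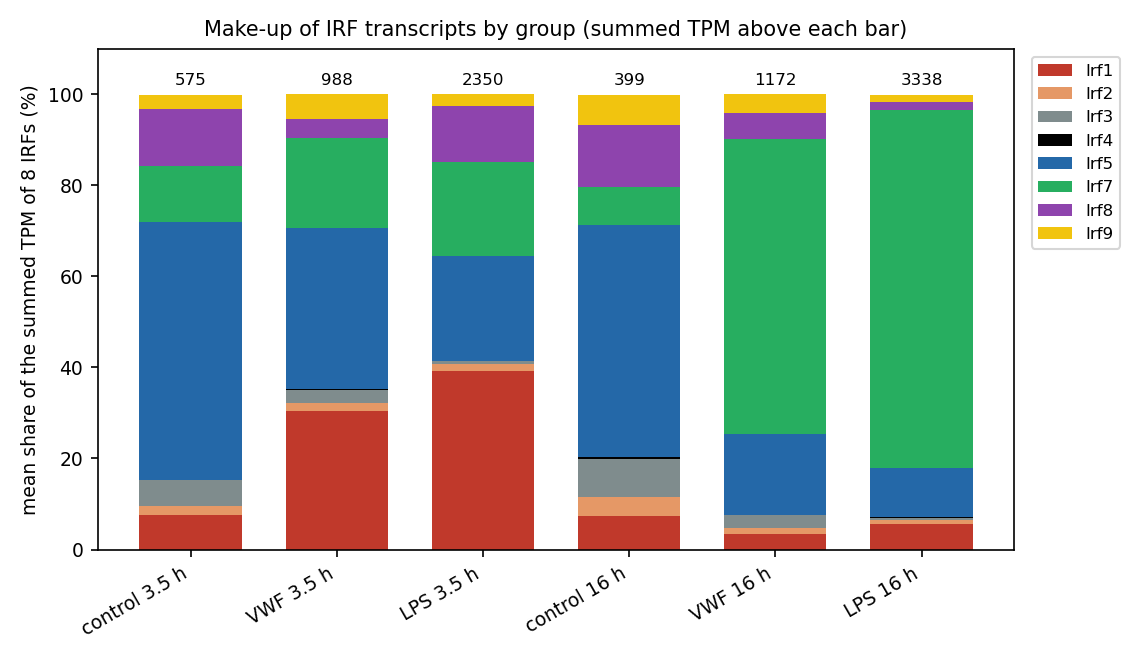
Mean share of the summed TPM of the 8 genes (vertical axis, percent) in each of the 6 groups, with the mean summed TPM printed above each bar. Irf5 holds the largest share in both control groups (56.6% and 50.9%), Irf1 holds 30.5% and 39.3% with VWF and LPS at 3.5 h, and Irf7 holds 64.7% and 78.7% at 16 h.

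The make-up of the family differed between the times as well as between the treatments. The summed TPM was 575 ± 46.1 in controls at 3.5 h, and was 988 ± 27.7 with VWF and 2350.4 ± 269.6 with LPS. At 16 h the sums were 399 ± 99.6, 1172 ± 150.4 and 3338 ± 671. The share of Irf7 went from 19.8% at 3.5 h to 64.7% at 16 h with VWF, and from 20.6% to 78.7% with LPS.

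Genes were tested with edgeR's quasi-likelihood test and Benjamini-Hochberg adjustment over all genes that reached 10 TPM in at least 1 culture of a comparison. A gene was called when its adjusted p was below 0.05 and its absolute log2 fold change above 1. Irf4 never reached 10 TPM, so 7 of the 8 IRFs were tested. VWF at 3.5 h called 3 of the 7 higher (Irf1, Irf7, Irf9) and none lower, where 9.1% of 8200 tested genes were called higher and 5.59% lower. VWF at 16 h called 1 of the 7 (Irf7) higher, against 4.55% of 7798 genes called higher and 4.15% lower. LPS called 6 of the 7 higher at 3.5 h, against 12.8% of 8190 genes higher and 11.8% lower. At 16 h LPS called 5 of the 7 higher, against 15.3% of 7994 genes higher and 12.4% lower. The median log2 fold change of the 7 was 0.78 and 0.42 with VWF and 2.35 and 1.36 with LPS at 3.5 h and 16 h, while that of all tested genes lay between -0.03 and -0.01. Over all genes, the calls split into 746 higher and 458 lower with VWF at 3.5 h, and into 1047 and 963 with LPS at 3.5 h and 1221 and 989 at 16 h. With library size scaling the same splits were 608 and 652, 704 and 2213, and 782 and 2319. By adjusted p alone 6 of the 7 differed from control with VWF at 3.5 h (43.6% of all genes) and 4 of the 7 at 16 h (27.7% of all genes). With LPS 7 of the 7 differed at 3.5 h (65.7% of all genes) and 6 of the 7 at 16 h (53.7% of all genes). Of the 7 at 3.5 h, Irf3 depended on the filter and on single cultures.

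**Figure D2:**
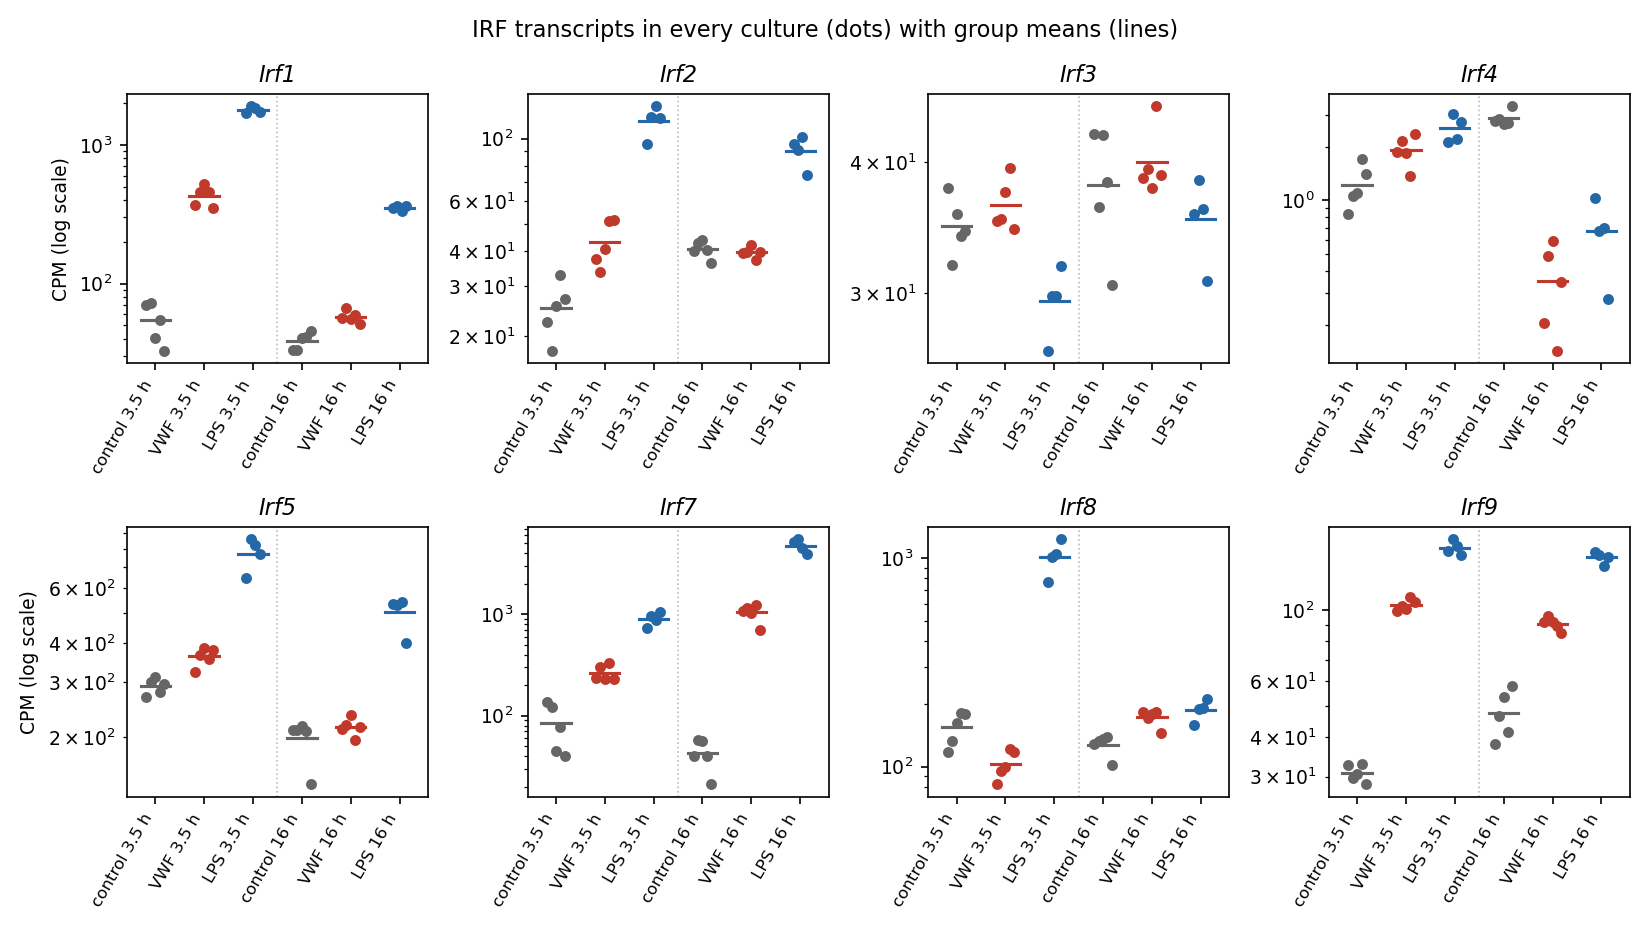
CPM of each gene (vertical axes, log scale) in every culture, as 1 dot per culture with a line at the group mean, for control (grey), VWF (red) and LPS (blue) at 3.5 h and 16 h. Irf1 is highest in the 4 LPS cultures at 3.5 h (1704 to 1903 CPM), Irf7 in the 4 LPS cultures at 16 h (3945 to 5456 CPM), and Irf8 in the 4 LPS cultures at 3.5 h (765 to 1228 CPM).

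Irf1, an activator induced within hours by interferon gamma and inflammatory stimuli, was the member with the largest early response to VWF. Its CPM in control cultures at 3.5 h was 70.2, 72.9, 40.5, 55 and 32.6, and in VWF cultures 367, 455, 525, 458 and 352. In LPS cultures it was 1704, 1903, 1858 and 1729. The 3 groups did not overlap. Irf1 rose 8-fold with VWF (log2 fold change 3 ± 0.23 SE, adjusted p = 8.31e-07) and 33.3-fold with LPS (5.06 ± 0.25, adjusted p = 1.58e-08). VWF cultures lay 4.09-fold below LPS cultures (log2 difference -2.03 ± 0.12, adjusted p = 7.38e-07). At 16 h the VWF cultures held 56.1, 66.3, 55.4, 59.1 and 50.7 CPM against 33.2 to 45.6 CPM in controls, a 1.48-fold difference that passed the adjusted p (0.00233) and not the fold threshold. LPS cultures at 16 h still held 333 to 364 CPM, 9.28-fold above control. The VWF effect on Irf1 was smaller at 16 h than at 3.5 h by 2.41 on the log2 scale (interaction adjusted p = 4.26e-07), and the LPS effect by 1.83 (1.94e-05). The drop in effect was larger with VWF than with LPS by 0.59 on the log2 scale (SE 0.14, adjusted p = 0.00234), which no longer passed with all 6 groups in 1 fit (0.0578).

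Irf2, which binds the sites of IRF1 and represses many of them, moved less. It held 17.7 to 33 CPM in controls at 3.5 h, 33.7 to 51.4 CPM with VWF and 95.4 to 130.1 CPM with LPS, and the 3 ranges did not overlap. LPS raised Irf2 4.62-fold (log2 2.21 ± 0.16, adjusted p = 3.74e-07), and VWF gave a 1.72-fold difference (0.78 ± 0.17, adjusted p = 0.00292) below the fold threshold. At 16 h VWF cultures (37.2 to 42 CPM) overlapped controls (36.4 to 43.7 CPM), with a log2 difference of -0.05 and a 95% interval from -0.23 to 0.12. LPS cultures at 16 h held 74 to 101 CPM, 2.26-fold above control (adjusted p = 1.07e-05), a call that was lost with library size scaling (log2 0.62). The TPM ratio of Irf1 to Irf2 went from 4.35 ± 2.29 in controls at 3.5 h to 19.3 ± 5.2 with VWF and 29.2 ± 3.01 with LPS. At 16 h the ratio was 1.78 ± 0.347 in controls, 2.71 ± 0.315 with VWF and 7.39 ± 1.25 with LPS.

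Irf7, the interferon-induced amplifier of the interferon genes, had the largest late response. In controls at 3.5 h it held 137, 121, 44.7, 77.4 and 39.9 CPM, the widest spread of the 8 genes in that group. The summed TPM of 13 targets of ISGF3 in the same 5 cultures was 1708, 1408, 1182, 1039 and 1035. Replicates 1 and 2 were highest in both, while replicate 4 had more Irf7 than replicate 3 and a lower target sum. In controls at 16 h replicate 5 had the least Irf7 (21.1 CPM) and the highest target sum. That sum was 1618 TPM, against 889 to 1164 TPM in the other controls of that time. VWF cultures at 3.5 h held 234, 302, 230, 329.8 and 228 CPM, all above the controls, and LPS cultures 730.4, 952, 870.2 and 1054 CPM. Irf7 rose 3.17-fold with VWF (log2 1.66 ± 0.33, adjusted p = 0.00157) and 10.7-fold with LPS (3.42 ± 0.37, adjusted p = 9.46e-06). Without any 1 culture the VWF value lay between 1.48 and 1.92 and stayed called.

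At 16 h the controls held 40.2, 58.1, 56.7, 40.1 and 21.1 CPM of Irf7, and the VWF cultures 1084, 1161, 1029, 1233 and 697 CPM. LPS cultures held 5101, 5456, 4519.7 and 3945 CPM. Every VWF culture was above every control and below every LPS culture. Irf7 rose 23.7-fold with VWF (log2 4.57 ± 0.31, adjusted p = 2.67e-06) and 112-fold with LPS (6.8 ± 0.33, adjusted p = 2.29e-07). The effect grew from 3.5 h to 16 h by 2.94 ± 0.45 on the log2 scale with VWF (interaction adjusted p = 3.15e-05) and by 3.38 ± 0.48 with LPS (1.88e-05). The difference between these gains did not pass (log2 -0.46, adjusted p = 0.0997). VWF cultures lay 3.34-fold below LPS cultures at 3.5 h and 4.54-fold below them at 16 h.

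Irf3, the constitutively expressed partner of IRF7 that is regulated by phosphorylation, had the smallest differences from control of the 7 tested genes with LPS under TMM scaling. It held 31.9 to 37.8 CPM in controls at 3.5 h, 34.5 to 39.5 CPM with VWF and 26.4 to 31.8 CPM with LPS. With VWF the log2 difference was 0.07 (95% interval -0.08 to 0.23) at 3.5 h and 0.06 (-0.18 to 0.29) at 16 h. With LPS it was -0.23 ± 0.09 at 3.5 h (adjusted p = 0.0387), and that p lay above 0.05 when any of 6 of the 9 cultures was left out. It was also above 0.05 with the filterByExpr setting of edgeR (0.171) and with no filter on low counts (0.201). At 16 h LPS cultures (30.8 to 38.4 CPM) overlapped controls (30.5 to 42.5 CPM). Scaling by library size changed the sign of the VWF values of Irf3 to -0.14 and -0.02. At 16 h it gave Irf3 a log2 difference of -0.65 with LPS against control (adjusted p = 0.0101) and of 0.64 for VWF against LPS (adjusted p = 0.000384), both past the adjusted p, while Irf8 with LPS was 0. On the TPM scale, which carries no TMM factor, Irf3 was 17.4 ± 1.5 with LPS against 32.8 ± 3.02 in controls at 3.5 h. The TPM ratio of Irf7 to Irf3 was 2.21 ± 1.15 in controls at 3.5 h and 123 ± 8.35 with LPS at 16 h, with VWF at 6.62 ± 1.02 and 23.7 ± 4.19 at the 2 times.

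**Figure D3:**
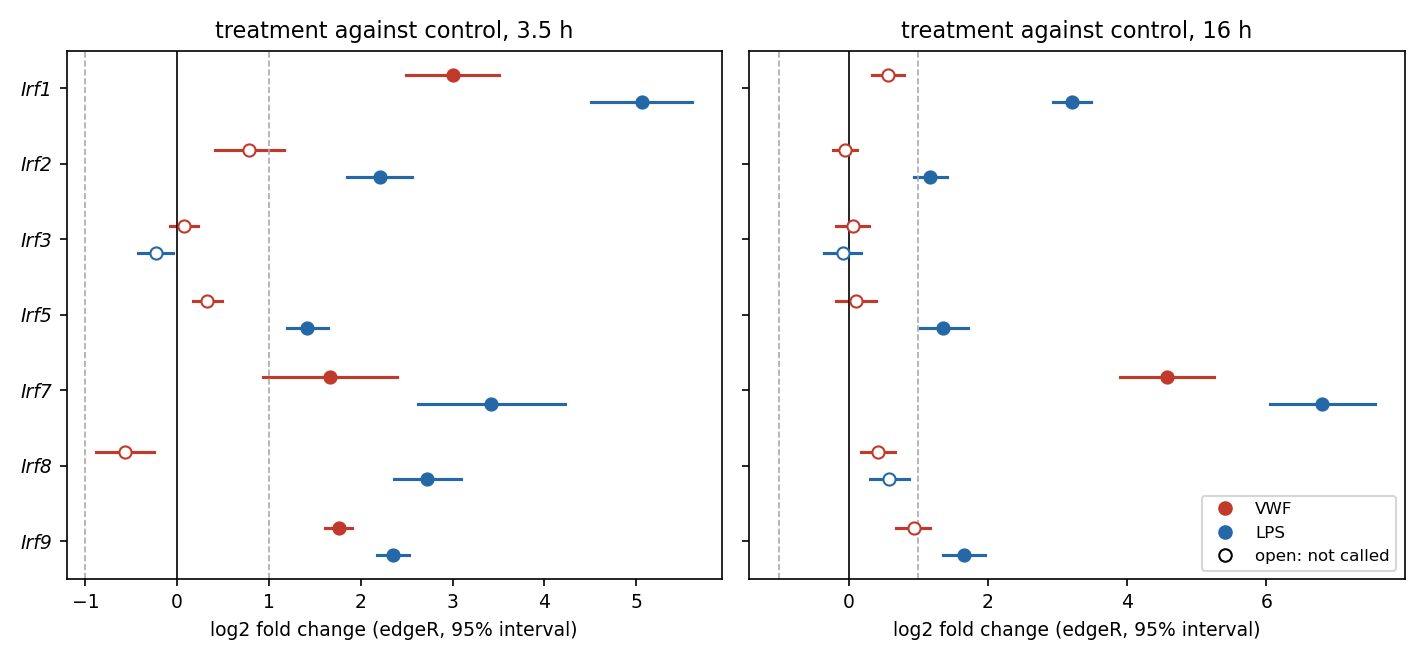
Log2 fold change against the control of the same time (horizontal axis) with its 95% interval, for the 7 tested genes with VWF (red) and LPS (blue) at 3.5 h (left) and 16 h (right). Filled points are called, dashed lines mark the fold threshold, and the VWF value of Irf7 at 16 h (4.57) is the farthest VWF point from 0.

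Irf5, a mediator of MyD88-dependent cytokine induction, was called with LPS alone. Controls at 3.5 h held 269 to 312 CPM, VWF cultures 324 to 387 CPM and LPS cultures 645 to 859 CPM, without overlap. The VWF difference was 1.26-fold (log2 0.33 ± 0.07, adjusted p = 0.00279, and 0.149 with library size scaling), and LPS raised Irf5 2.68-fold (1.42 ± 0.1, adjusted p = 2.77e-07). At 16 h VWF cultures held 195 to 236 CPM against 141 to 217 CPM in controls (log2 0.1, 95% interval -0.18 to 0.39), and without control replicate 5, at 141 CPM, the value was 0. LPS cultures at 16 h held 400.3 to 542 CPM, 2.57-fold above control (adjusted p = 4.81e-05). With library size scaling the LPS values were 0.88 and 0.79 on the log2 scale and the calls were lost at both times. The test of a change in effect between the times gave -0.19 for VWF and -0.04 for LPS, and neither passed. Without control replicate 5 of 16 h the VWF value was -0.31 and passed (adjusted p = 0.00787).

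Irf8, a lineage factor of monocytes and macrophages that binds with PU.1, was the only tested member whose VWF and LPS differences from control at 3.5 h both passed the adjusted p with opposite signs. Controls at 3.5 h held 118, 133, 162, 180 and 179.7 CPM. VWF cultures held 82.3, 95.4, 99.9, 122 and 118 CPM, of which 3 of 5 lay below every control, so the ranges overlapped. LPS cultures held 765, 1013, 1048 and 1228 CPM, far above both. The VWF difference was 1.48-fold lower (log2 -0.57 ± 0.14, adjusted p = 0.00694, not called), and LPS raised Irf8 6.61-fold (2.72 ± 0.16, adjusted p = 8.19e-08). Set against each other, VWF cultures lay 9.59-fold below LPS cultures (log2 -3.26 ± 0.16, adjusted p = 1.73e-07), the largest of the 7 differences between the treatments at that time.

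By 16 h Irf8 no longer separated the treatments. Controls held 102 to 138 CPM, VWF cultures 145 to 183 CPM and LPS cultures 158 to 212 CPM. The differences from control were 1.34-fold with VWF (adjusted p = 0.0156) and 1.5-fold with LPS (adjusted p = 0.00282), neither called and neither past the adjusted p with library size scaling (0.111 and 0.997). The difference between VWF and LPS was -0.11 on the log2 scale (95% interval -0.34 to 0.12). With the same scaling the last value was 0.35 (adjusted p = 0.0108), and on the TPM scale LPS cultures (54.7 ± 6.4) and controls (53.9 ± 13.2) were side by side. The LPS effect fell between the times by 2.12 on the log2 scale (adjusted p = 6.08e-07) and the VWF effect rose by 1.02 ± 0.18 (adjusted p = 0.000188). The call of the VWF change was lost under 11 of the fits tried (the added one without both distant cultures included), with values between 0.93 and 0.99 and an adjusted p that still passed. The difference between the 2 time courses was 3.13 ± 0.2 (adjusted p = 1.83e-09), the only one of the 7 called in that comparison. The 7 dendritic cell markers, a lineage that also uses IRF8, summed to 0.849 to 1.27 TPM in controls, 8.62 to 10.4 TPM with VWF and 10.7 to 12.2 TPM with LPS at 3.5 h. Xcr1 alone of the 7 had a mean over 1 TPM there. The 4 T cell markers summed to 21.4 to 37.2 TPM with LPS at 3.5 h, with Lck alone over 1 TPM, and to at most 2.45 TPM in the other groups. Their part in the Irf8 values was not tested, and fewer cells of a type cannot be told apart from less RNA per cell in these bulk samples.

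Irf4, a factor of alternatively activated macrophages and of lymphocytes, had the lowest counts of the 8. It held 0.841 to 1.7 CPM in controls at 3.5 h, 1.37 to 2.35 CPM with VWF and 2.11 to 3.05 CPM with LPS. At 16 h the controls held 2.78, 2.85, 2.67, 2.73 and 3.37 CPM, the VWF cultures 0.204, 0.485, 0.586, 0.142 and 0.347 CPM, and the LPS cultures 1.03, 0.675, 0.698 and 0.279 CPM. All treated cultures at 16 h were below all controls of that time. Under the filterByExpr setting of edgeR, which admits genes of this level, Irf4 was lower with VWF by 2.96 ± 0.35 on the log2 scale (adjusted p = 0.000114) and with LPS by 2 ± 0.33 (0.000706) at 16 h. At 3.5 h the same setting gave 0.73 ± 0.22 with VWF (adjusted p = 0.0204) and 1.14 ± 0.23 with LPS (0.00125), so the sign differed between the times with both treatments. Single cultures held 8 to 41 counts in the VWF group at 16 h, so these values carry a wide counting error. The 4 B cell markers summed to at most 0.659 TPM in any culture.

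Irf9, the DNA-binding subunit of ISGF3, had little spread within the groups at 3.5 h. Controls at 3.5 h held 32.7, 29.8, 30.5, 32.9 and 28.4 CPM, VWF cultures 99.7, 103, 101, 109.8 and 106 CPM, and LPS cultures 154, 167, 159 and 149 CPM. Irf9 rose 3.39-fold with VWF (log2 1.76 ± 0.07, adjusted p = 4.38e-09) and 5.11-fold with LPS (2.35 ± 0.08, adjusted p = 9.68e-10). VWF reached 0.57 log2 units less than LPS (adjusted p = 5.47e-05), the smallest treatment difference of the 5 IRFs called with LPS at both times. At 16 h VWF cultures held 84.8 to 96 CPM against 38 to 57.8 CPM in controls. That was a 1.9-fold difference (0.93 ± 0.11, adjusted p = 0.000111) just below the fold threshold. LPS cultures held 138 to 153 CPM, 3.14-fold above control (adjusted p = 4.93e-06). The effect was smaller at 16 h by 0.8 with VWF (adjusted p = 6.76e-05) and by 0.69 with LPS (0.00108), while control cultures themselves lay 1.54-fold higher at 16 h than at 3.5 h (adjusted p = 0.00247).

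**Figure D4:**
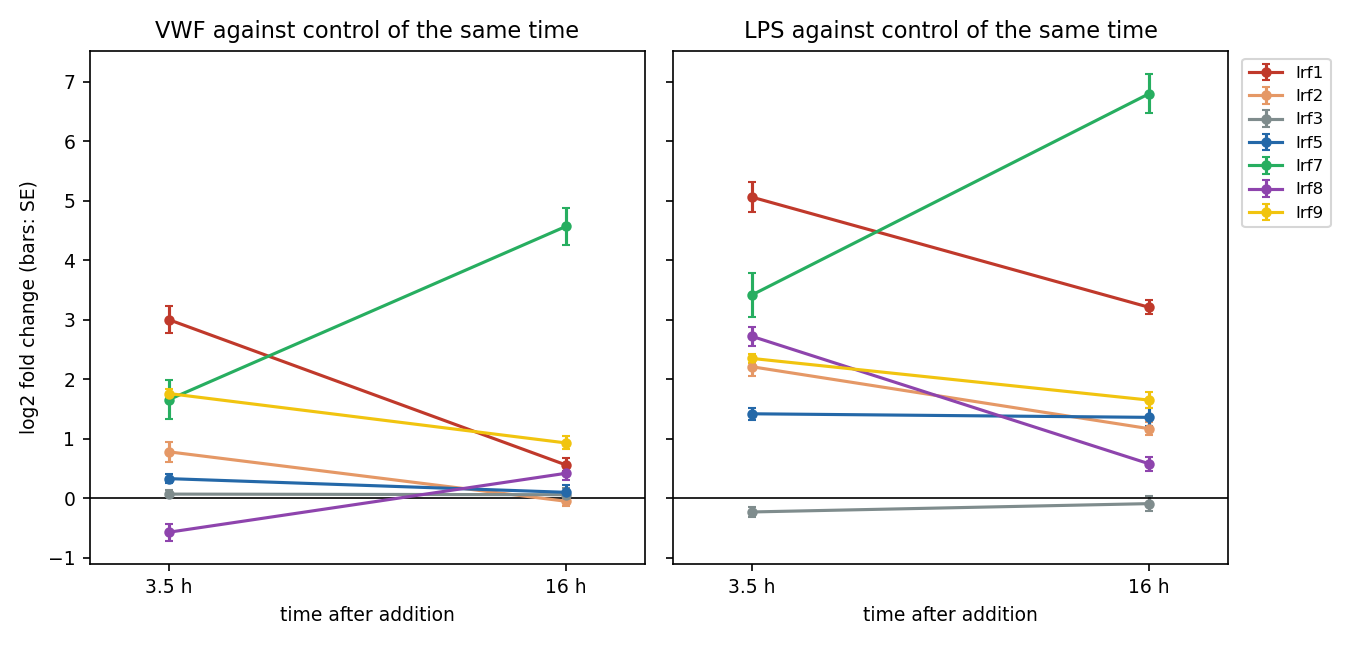
Log2 fold change against the control of the same time (vertical axis, bars are SE) at 3.5 h and 16 h, with VWF on the left and LPS on the right, 1 line per tested gene. Irf7 climbs with both treatments (1.66 to 4.57 and 3.42 to 6.8), Irf1 falls with both (3 to 0.56 and 5.06 to 3.21), and Irf8 falls with LPS (2.72 to 0.58) while it goes from -0.57 to 0.42 with VWF.

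Set directly against LPS, VWF cultures were called lower for 5 of the 7 IRFs at 3.5 h (Irf1, Irf2, Irf5, Irf7 and Irf8), where 6.71% of 7500 genes were called lower and 4.71% higher. They were called lower for 4 of the 7 at 16 h (Irf1, Irf2, Irf5 and Irf7), where 14.5% of 7574 genes were called lower and 11.1% higher. None was called higher at either time. By adjusted p alone 7 of the 7 differed at 3.5 h (50.2% of all genes) and 5 of the 7 at 16 h (60.5% of all genes). Irf3 was the exception in direction, 1.26-fold higher with VWF than with LPS at 3.5 h (adjusted p = 0.00667, and 0.079 with no filter on low counts). The calls of Irf5 at both times and of Irf2 at 16 h were lost with library size scaling. 

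Between the times within a treatment, Irf7 was called higher and Irf1 lower in VWF cultures (log2 1.98 and -2.9), where 9.15% of 7927 genes were called higher and 12.2% lower. In LPS cultures Irf7 was called higher (2.43 ± 0.15) and Irf1 and Irf8 lower (-2.32 ± 0.09 and -2.41 ± 0.16), where 14.6% of 6987 genes were called higher and 13.5% lower. By adjusted p alone 5 of the 7 differed between VWF times (67.9% of all genes) and 6 of the 7 between LPS times (60.9%). Of the 7 tested IRFs edgeR called none between the 2 control groups, nor did DESeq2, where 4% of 8333 genes were called higher and 5.09% lower. At an unadjusted p below 0.05, 5 of the 7 differed there. The share of all genes at that threshold was not computed, so this count does not set the IRFs apart. Irf4, tested only under looser filters, was called higher at 16 h in controls (1.19 ± 0.21, adjusted p = 0.00153 with filterByExpr). At an adjusted p alone 3 of the 7 differed between control times (Irf2, Irf5 and Irf9), against 41.1% of all genes, and Irf7 was called lower at 16 h without control replicate 3 or 5 of 3.5 h (log2 -1.12 and -1.14). The test of a change in effect between the times called 2 of the 7 upward at 16 h with VWF (Irf7 and Irf8) and 1 downward (Irf1), against 5.69% and 7.77% of 8660 genes. With LPS it called 1 upward (Irf7) and 3 downward (Irf1, Irf2 and Irf8), against 13.5% and 12.8% of 8748 genes. The call of Irf2 (-1.01) was lost in 7 of 18 fits without 1 culture (-0.99 to -0.91) and without both distant cultures (-0.97), with an adjusted p that still passed. For the difference between VWF and LPS it called Irf8 alone, against 10.7% of 8217 genes called upward and 14.3% downward. By adjusted p alone these tests passed for 5, 5 and 2 of the 7, where 32.6%, 48.8% and 52.7% of all genes passed. The comparisons with control share the control cultures of each time.

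Genes that feed signal into IRFs or carry it onward were followed as 9 lists. Genes near 0 in controls passed the 10 TPM filter only through treated cultures, where they had to differ, so the counts over tested genes describe those genes alone, cover different genes at the 2 times and are no support for a direction. Over all tested genes VWF called 9.1% higher and 5.59% lower at 3.5 h, and 4.55% and 4.15% at 16 h. The shares with LPS were 12.8% and 11.8% at 3.5 h, and 15.3% and 12.4% at 16 h. Of 21 adaptors and kinases that activate IRF3, IRF5 and IRF7, VWF called 8 of 21 tested higher and 1 lower at 3.5 h, and 3 of 18 higher at 16 h. LPS called 7 of 20 and 10 of 18 higher. Ifih1, which encodes the RNA sensor MDA5, rose 13.8-fold with VWF and 77.1-fold with LPS at 3.5 h, and Ddx58, which encodes RIG-I, rose 6.62-fold with VWF. Tlr4, the receptor of LPS, was the 1 gene lower with VWF (2.11-fold, adjusted p = 0.000304). Of 7 interferon receptor and JAK genes, VWF called 3 higher at 3.5 h, among them Jak2 (8.92-fold, 378 against 42.8 CPM) and the interferon receptor gene Ifnar1 (2.29-fold), and none at 16 h. LPS called 2 higher at 3.5 h and 5 higher at 16 h, when the interferon gamma receptor gene Ifngr1 fell 2.84-fold.

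Factors that bind DNA together with IRFs were also followed. VWF at 3.5 h called 6 of 8 tested partners higher and 1 lower, against 9.1% and 5.59% of all tested genes. Batf, an AP-1 factor that pairs with IRF4 and IRF8, went from 3.13 to 47.3 CPM with VWF, and Jun fell 3.51-fold. At 16 h VWF called 2 of 9 higher (4.55% of all tested genes), among them Stat2 (3.81-fold, adjusted p = 0.00248). Outside the 8 members, Irf2bp2, whose product is a corepressor that binds IRF2, fell 3.88-fold with VWF and 24.8-fold with LPS at 3.5 h. Its CPM was 225 in controls, 57.5 with VWF and 9.03 with LPS, and at 16 h it was not called with either treatment.

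**Figure D5:**
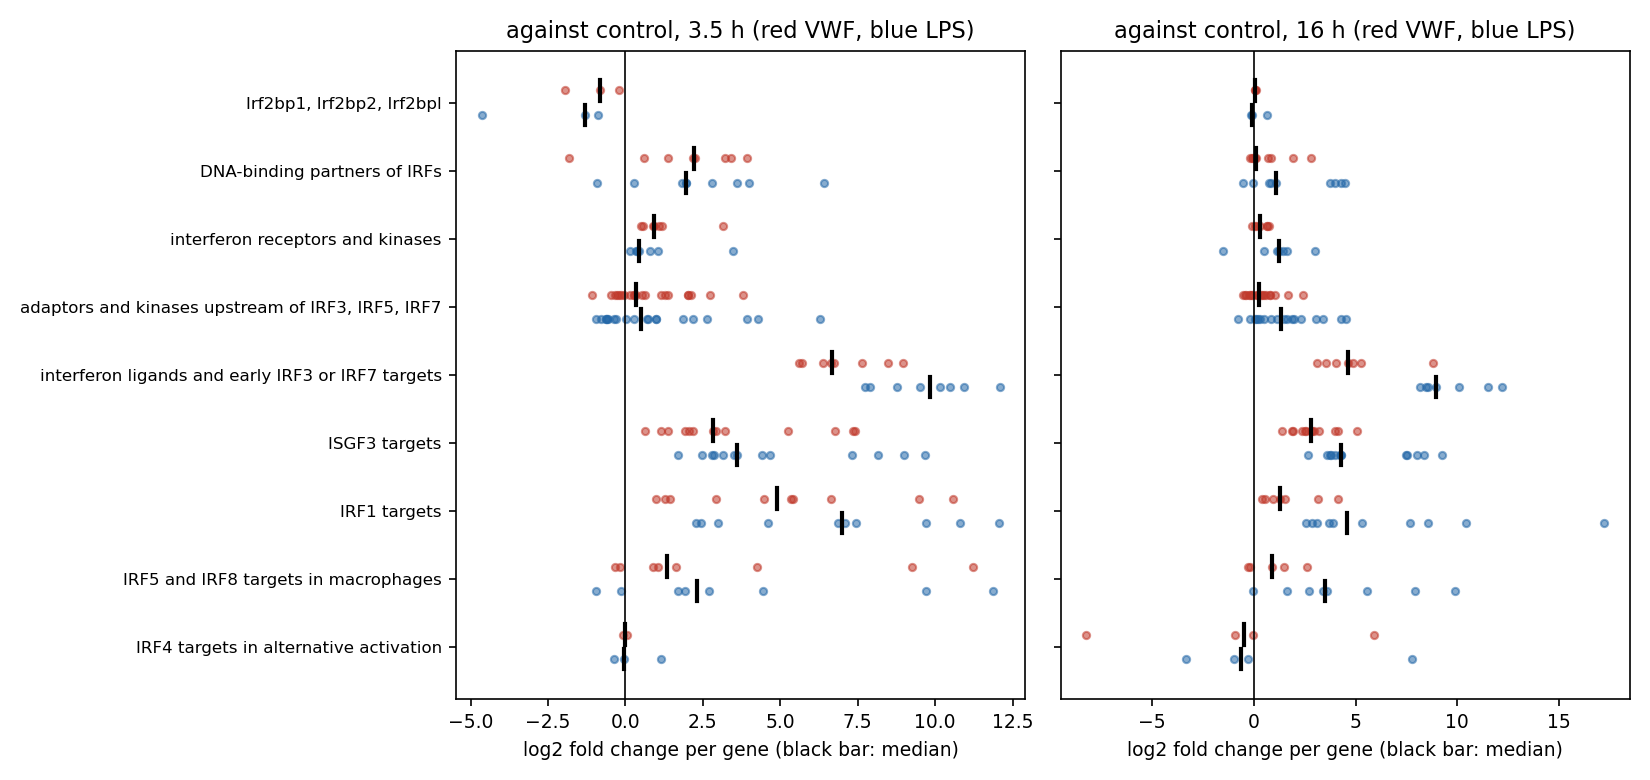
Log2 fold change of each tested gene in 9 lists (dots, VWF red and LPS blue) against the control of the same time, with a black bar at the list median. The ISGF3 targets have a VWF median of 2.83 at 3.5 h and 2.8 at 16 h, with all 13 tested at both times, while the other lists can hold different genes at the 2 times, and points beyond 10 belong to genes close to 0 CPM in controls.

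Targets of the IRFs were grouped by the factor they are known for. Of 10 interferon ligand and early IRF3 or IRF7 target genes, 8 were tested at 3.5 h and 7 at 16 h. Each of these was called higher with VWF and with LPS. Among all tested genes 9.1% and 4.55% were called higher with VWF at the 2 times, and 12.8% and 15.3% with LPS. Ifnb1 was tested at 3.5 h and not at 16 h, since its level with VWF was 14.4 TPM at 3.5 h and below the filter at 16 h. Cxcl10, a chemokine gene, reached 3599 CPM with VWF at 3.5 h against 7.25 CPM in controls, and Ccl5 held 1108 CPM with VWF at 16 h against 2.48 CPM. Ifnb1, the gene of interferon beta, reached 171 CPM with LPS and 3.95 CPM with VWF at 3.5 h, a 43-fold difference between the treatments (adjusted p = 4.72e-07). Ifna2 and Ifna4 had no count in any control or VWF culture.

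Of 13 ISGF3 targets, VWF called 12 higher at 3.5 h and 13 at 16 h, and LPS called 13 at each time. For this and the next lists, the shares of all tested genes called higher were 9.1% and 4.55% with VWF, and 12.8% and 15.3% with LPS. Oasl1, an oligoadenylate synthetase-like antiviral gene, rose 169-fold with VWF at 3.5 h and 17.4-fold at 16 h, while Ifi44 rose 33.7-fold at 16 h. The 11 IRF1 targets gave 9 of 10 tested higher with VWF at 3.5 h and 4 of 7 tested at 16 h, with fewer genes past the filter at 16 h. Gbp2, a guanylate-binding protein gene, held 95.6 CPM with VWF at 16 h against 5.44 CPM in controls. Of 10 cytokine and phagocyte genes known as targets of IRF5 and IRF8, VWF called 5 of 8 tested higher at 3.5 h and 2 of 5 at 16 h. Il12b was 109 CPM with VWF and 38.5 CPM with LPS at 3.5 h, the 1 gene of that list called higher with VWF than with LPS, while Il6 was 75.1 and 459.9 CPM. Cybb, a subunit gene of the phagocyte oxidase, rose 2.76-fold with VWF at 16 h. Of 7 genes of alternative activation linked to IRF4, 4 were tested at 16 h. Arg1 was called higher with VWF (50.3 against 0.827 CPM) and Ccl24 lower (0.0354 against 10.8 CPM, from 11 counts over the 5 VWF cultures).

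Genes whose log2(CPM + 1) followed each member most closely over the 28 cultures were listed with Pearson's r, as a description in which all points share the same 6 groups and libraries. The closest to Irf1 were Gm18445 (0.988), Zup1 (0.987) and Il10 (0.987), the last an anti-inflammatory cytokine gene. The closest to Irf7 were Ms4a4c (0.986), Ifitm3 (0.986) and Ifi44 (0.985), and to Irf9 Gm5431 (0.979), Parp9 (0.975) and Isg15 (0.97). Interferon-induced genes among these include Ifitm3, Ifi44 and Isg15. Irf5 was followed by Tlk2 (0.983) and Plekhf2 (0.98), and Irf2 by Ppp6r1 (0.96), Crybg1 (0.953) and Tmem67 (0.952). Irf8 was followed by Elf1 (0.94), Il33 (0.896) and Lck (0.895). Irf3 with Mesd (0.846), Ppm1m (0.841) and Ring1 (0.827), and Irf4 with Fam129a (0.859), Igf1 (0.856) and St8sia4 (0.855), had the weakest best matches of the 8.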

How the data were processed

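Whole-number read counts per Ensembl gene were deposited by the authors, who mapped reads to GRCm38 (mm10) with STAR. Which STAR version and gene annotation were used, whether counting was stranded, and how reads with several matches were treated is not given in the sources used here. Counts were tested with edgeR 4.0.16 in R 4.3.3 (quasi-likelihood, robust, TMM factors) on the groups of each of 12 comparisons, over genes that reached 10 TPM in at least 1 culture, and DESeq2 1.42.0 served as an alternative. The study itself used DESeq2. TPM was computed with GENCODE M21 exon lengths. SE was derived from the fold change and the F statistic. Reads carry no molecular identifiers, and total counts were 41131209 to 77699206 per culture. No 2 cultures of a group agreed within sampling noise. The members and the gene lists were chosen with earlier results of these data known. Named list genes are at most 4 per list and comparison, the 2 largest called changes each way, and the 3 genes most correlated with each member, less some results that are not reported here. Genes outside that rule (Ifna2, Ifna4) were named after their values were seen. The main edgeR fit of each comparison was run on simulated counts with 200 changed genes. That simulation gave all genes the same dispersion and changes of equal size in both directions. It therefore does not test the lopsided shifts with LPS or the alternative settings. Same-numbered cultures deviated together in every pair only for VWF against LPS at 16 h (4 pairs, r from 0.207 to 0.854), and the labels give no shared animal or batch for a number. Alternatives were another test, 2 other scalings, 2 other filters, 1 fit of all groups, a replicate block, the call rule, leaving out each culture and, added after seeing the data, leaving out both distant cultures.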

Additional observations from a re-analysis of the deposited data

Results flagged for a closer look

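Of 48 groups of values (8 genes in 6 groups), 5 held a culture far from the others, where chance alone gives about 1 in 20. Irf5 was 141 CPM in control replicate 5 at 16 h (nearest culture 209.6 CPM) and 400.3 CPM in LPS replicate 4 at 16 h (nearest 528 CPM). In the same control culture Irf8 was 102 CPM (nearest 128 CPM) and Irf4 was 3.37 CPM (nearest 2.85 CPM). Irf3 was 45.2 CPM in VWF replicate 4 at 16 h (nearest 39.4 CPM).

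The size of an effect differed between 3.5 h and 16 h in 12 of 21 tested cases, by edgeR's interaction test at an adjusted p below 0.05. Of all tested genes, 32.6% passed this test for VWF against control, 48.8% for LPS against control and 52.7% for VWF against LPS. The tests share cultures, so the cases are not separate. For VWF against control the log2 effect at 16 h minus that at 3.5 h was -2.41 for Irf1, -0.8 for Irf2 (adjusted p = 0.00292), 2.94 for Irf7, 1.02 for Irf8 and -0.8 for Irf9. For LPS against control it was -1.83 for Irf1, -1.01 for Irf2 (adjusted p = 0.000706), 3.38 for Irf7, -2.12 for Irf8 and -0.69 for Irf9. For VWF against LPS it was -0.59 for Irf1 and 3.13 for Irf8.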

How the results depend on the processing

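Of 84 values of the 7 tested IRFs in 12 comparisons, 82 kept their direction and call with DESeq2, 83 with 1 fit of all groups, 83 with filterByExpr, 82 with no filter and 72 with library size scaling. With the replicate block all 84 kept their direction and call. By adjusted p alone the block lost Irf3 with LPS at 3.5 h (0.126), Irf9 between VWF times (0.0605), and Irf2 and Irf3 between LPS times (0.0753 and 0.0965), and it gained Irf7 in the VWF against LPS time difference (-0.49, 0.0333). The cause of these and the following changes was not tested.

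By adjusted p alone, with no fold threshold, the number of IRFs was 6 for VWF at 3.5 h, 4 for VWF at 16 h, 5 between VWF times, 6 between LPS times, 3 between control times, 5 for the VWF time difference and 2 for the VWF against LPS time difference. Both looser filters admit Irf4 and gave 2 for VWF at 16 h and 1 between control times. Between control times the count was 0 to 1 when each culture was left out. Library size scaling gave 3 for LPS at 16 h and 2 for VWF against LPS at 16 h. The order of the 6 groups was the same in CPM as in TPM for 3 of 8 genes.

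Direction reversed for 24 values, none of them called in the reported fit. With library size scaling Irf3 was -0.14 and -0.02 with VWF at 3.5 h and 16 h, Irf8 was 0.35 for VWF against LPS at 16 h, and Irf3, Irf5 and Irf9 were 0.01, 0.01 and 0.05 in the VWF against LPS time difference. Irf2 with VWF at 16 h was 0.01 with filterByExpr and 0.02 with no filter, and Irf3 with LPS at 16 h was 0.01 with no filter. Without control replicate 5 of 16 h, and likewise without both distant cultures, VWF at 16 h gave -0.02 for Irf3 and 0 for Irf5 (without each culture in turn -0.02 to 0.11 and 0 to 0.15). The VWF time difference of Irf3 was -0.02 with DESeq2 and with median-of-ratios factors, 0 with all groups, -0.07 to 0.06 without each culture in turn and -0.07 without both distant cultures. The LPS time difference of Irf5 was 0.02 without LPS replicate 2 of 3.5 h and 0.04 without LPS replicate 4 of 16 h. The LPS time difference of Irf2 lost its call in 7 of the fits without 1 culture (-0.99 to -0.91) and without both distant cultures (-0.97).

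Depth limits Irf4 most, at 8 to 244 counts per culture.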
